A study of Mus musculus with 16 samples.

Results

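The T-box positional identity genes described here were Tbx1, Tbx2, Tbx3, Tbx4, Tbx5, Tbx15, Tbx18 and Tbx20, which are 8 of 15079 protein-coding genes with enough data for a test. Their CpGs were taken from 5 kb upstream of the annotated gene start to the gene end (GENCODE M21, mm10), and a gene with this upstream stretch is called its window. The windows held 965 of the 1203687 CpGs measured in every library of the series. DNA methylation was measured by target capture bisulfite sequencing (tcBS-seq), in which RNA probes enrich chosen regions before bisulfite conversion, and the level of a CpG is the percentage of its reads called methylated.

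All cells were fibroblasts (MEFs) from a pair of C57BL/6J mouse embryos at E13.5, immortalised through serial passaging. The parental line MEF-1 came from a male and MEF-2 from a female embryo, and each was sequenced once as a mixture of cells. From each, 7 clonal lines were grown from single sorted cells, and the lines of 1 culture together are named a family here. A family stands for 1 embryo and 1 culture, so differences between families cannot be told apart from differences between embryos, sexes, dissections or passaging histories. No label names the body region from which the fibroblasts came.

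T-box genes encode transcription factors that share the T-box DNA-binding domain, and in the embryo many of them are switched on in restricted body regions. Fibroblasts of different body regions are known to keep differences in such positional genes in culture. Among these 8 genes, Tbx5 acts in the forelimb and heart, Tbx4 in the hindlimb, Tbx15 in skeleton and dorsal skin, Tbx18 in somites and the epicardium, Tbx20 in the heart and Tbx1 in the pharyngeal arches, whereas Tbx2 and Tbx3 are mainly transcriptional repressors in limbs, heart and other organs. Tbx2 lies 44474 bp before Tbx4 on chromosome 11, and Tbx3 lies 147944 bp before Tbx5 on chromosome 5.

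Some CpGs that differed between the families lay in runs of at least 3 neighbours that all differed in the same direction, called blocks below. For each gene with blocks, the one with most CpGs in each direction is shown, so that the sequence around neighbouring differences can be read, with the CpGs of the block in capitals, 5′ to 3′ on the plus strand of mm10 with 12 bases on either side. The Tbx1, Tbx4 and Tbx18 blocks are intronic, the Tbx2 and Tbx20 blocks lie upstream and the Tbx3 block is in a coding exon.
Tbx1 intron, chr16:18586155-18586323: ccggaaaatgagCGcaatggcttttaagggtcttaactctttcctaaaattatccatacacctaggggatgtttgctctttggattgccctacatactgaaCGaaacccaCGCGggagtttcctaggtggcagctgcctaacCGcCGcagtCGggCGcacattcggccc
Tbx2 upstream, chr11:85829935-85829977: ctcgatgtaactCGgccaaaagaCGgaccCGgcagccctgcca
Tbx3 coding exon, chr5:119674187-119674227: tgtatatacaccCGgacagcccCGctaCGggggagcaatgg
Tbx4 intron, higher in MEF-1, chr11:85891298-85891467: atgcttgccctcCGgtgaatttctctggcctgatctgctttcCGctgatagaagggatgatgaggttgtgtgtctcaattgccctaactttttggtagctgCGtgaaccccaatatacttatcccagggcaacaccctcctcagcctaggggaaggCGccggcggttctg
Tbx4 intron, higher in MEF-2, chr11:85895039-85895088: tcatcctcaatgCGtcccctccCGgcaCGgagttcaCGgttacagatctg
Tbx18 intron, chr9:87729297-87729431: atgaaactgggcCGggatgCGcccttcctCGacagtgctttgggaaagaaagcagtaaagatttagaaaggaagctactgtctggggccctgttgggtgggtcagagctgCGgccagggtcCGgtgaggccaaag
Tbx20 upstream, chr9:24778146-24778282: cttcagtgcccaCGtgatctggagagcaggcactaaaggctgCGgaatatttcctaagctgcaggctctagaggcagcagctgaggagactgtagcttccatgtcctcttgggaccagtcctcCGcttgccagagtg

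For contrast, a CpG-rich intronic stretch of Tbx15, chosen after its values were seen, is shown with its 13 measured CpGs in capitals. MEF-1 clonal lines averaged 1.07% ± 0.508 there, MEF-2 clonal lines 1.49% ± 1.18 (SD, n = 7), and none of the 13 CpGs was called different.
Tbx15 intron, chr3:99248555-99248723: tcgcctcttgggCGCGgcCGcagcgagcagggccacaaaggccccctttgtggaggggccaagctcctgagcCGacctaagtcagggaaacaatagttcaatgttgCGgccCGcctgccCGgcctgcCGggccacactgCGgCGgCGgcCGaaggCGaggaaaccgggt

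The 16 libraries held 59243669 to 90633091 calls (reads over a CpG), and the median coverage of the T-box CpGs was 23 to 35 reads per library. Relative coverage is a library's coverage of a chromosome, scaled within the library, over that of the median MEF-2 clonal line. MEF-1 clonal lines 1, 4 and 5 stood apart with 0.517 to 0.530 on chromosome 18, where no T-box gene of this set lies, and the MEF-1 parental library had 0.718. On chromosomes of the T-box genes, MEF-1 clonal line 6 had a relative coverage of 0.770 on chromosome 16 (Tbx1) and 0.890 on chromosome 11 (Tbx2, Tbx4), line 4 had 0.905 on chromosome 16, and line 7 had 1.35 on chromosome 5 (Tbx3, Tbx5). Promoters of the fibroblast genes Fn1, Vim and Twist2 had mean levels of 1.55, 1.53 and 1.65% over the 16 libraries. Of the 13 fibroblast genes chosen, 5 had at least 3 CpGs there, and the other 2, Pdgfra and S100a4, had 24.5% (2.00 to 46.5% between libraries) and 55.8%. The blood genes Ptprc and Laptm5 had promoter levels of 70.7 and 77.6%, the 3 measured endothelial promoters had a median of 60.4% and the 6 epithelial promoters one of 30.9%, with low levels at endothelial Kdr (8.20%) and epithelial Esrp1 (7.76%) and Cdh1 (17.4%).

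Mean methylation of the gene windows was compared first, to ask whether the T-box genes as wholes differed between the families. Tbx1, Tbx2, Tbx3 and Tbx15 were higher in MEF-1 clonal lines and Tbx5 and Tbx18 were higher in MEF-2 clonal lines, whereas Tbx4 and Tbx20 did not pass the test. Thus 6 of 8 genes were called, against 60.5% of all genes tested, with 4 higher in MEF-1 (39.4% of all genes) and 2 higher in MEF-2 (21.0% of all genes). The median signed difference (MEF-1 minus MEF-2) over the 8 genes was 0.777 points, close to the 0.820 points over all genes. Differences in opposite directions offset each other in it, so it does not give the size of a typical difference. The test was a two-sided exact permutation test of 7 against 7 lines, with p-values adjusted by Benjamini-Hochberg over 15079 genes. Lines that do not overlap give the smallest p of this test, 0.000583, so separation and that p are the same result. The share of all genes at which the lines of the families did not overlap was not determined, so such separation is given as a description.

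Tbx18 had the largest gene-level difference of the 8. Its 85 CpGs (gene at chr9:87702800-87731260, minus strand) had a mean level of 31.6 to 35.8% in MEF-1 clonal lines, with a median of 33.5%, and of 40.1 to 46.4% in MEF-2 clonal lines, with a median of 46.1%. The lines of the families did not overlap, and the means were 33.4% ± 1.44 and 44.7% ± 2.30 (SD, n = 7 each), with a difference of -11.2 points (exact permutation p = 0.000583, adjusted p = 0.00188). The parental libraries had 31.8% (MEF-1) and 46.4% (MEF-2).

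Tbx2, with 115 CpGs (chr11:85832551-85841948, plus strand), went the other way. Its MEF-1 clonal lines had 65.9 to 69.1% (median 67.7%) and its MEF-2 clonal lines 58.0 to 62.4% (median 60.9%), again without overlap. The difference was 7.46 points (exact permutation p = 0.000583, adjusted p = 0.00188), and the parental libraries had 66.4% and 62.6%.

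Tbx1, with 165 CpGs (chr16:18580979-18590671, minus strand), had 43.0 to 45.0% (median 44.6%) in MEF-1 and 37.1 to 39.4% (median 38.4%) in MEF-2 clonal lines. The groups did not overlap and differed by 6.03 points (exact permutation p = 0.000583, adjusted p = 0.00188). This direction depended on which CpGs were included. Over the 48 CpGs read at least 20 times in each library the difference was -2.35 points (exact permutation adjusted p = 0.0657), and the introns and exons of Tbx1 differed in opposite directions, as described below.

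Tbx5, with 107 CpGs (chr5:119832668-119885219, plus strand), was low in both families, with 9.91 to 11.7% in MEF-1 (median 10.3%) and 10.5 to 16.9% in MEF-2 clonal lines (median 13.497%). The ranges overlapped, and the difference was -3.57 points (exact permutation p = 0.00233, adjusted p = 0.00564). Tbx15, with 150 CpGs (chr3:99240381-99354259, plus strand), had the lowest level of the 8 genes. MEF-1 clonal lines were at 5.31 to 5.99% (median 5.49%), MEF-2 clonal lines at 4.72 to 5.17% (median 5.02%). These lines did not overlap either, although the difference was only 0.596 points (exact permutation p = 0.000583, adjusted p = 0.00188). The median signed difference over all genes was 0.820 points, which is no measure of the typical size. In the MEF-1 parental library 139 of the 150 Tbx15 CpGs were under 10%, and bisulfite conversion was not assessed here.

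Tbx3, with 169 CpGs (chr5:119670669-119684724, plus strand), averaged 59.8% ± 0.457 in MEF-1 clonal lines and 58.5% ± 1.25 in MEF-2 clonal lines (mean ± SD, n = 7 each). The ranges of 59.2 to 60.6% and 56.1 to 59.5% overlapped, and the difference of 1.36 points had an exact permutation p of 0.00524 (adjusted p = 0.0110). It lost its call, with a difference in the same direction, when each CpG was thinned to 10 reads (1.09 points, exact permutation adjusted p = 0.124), with pooled reads (2.19 points, 0.207) and without MEF-1 lines 1, 4 and 5 (1.22 points, 0.141). The last of these compared 4 with 7 lines, and the part of the smaller number of lines was not tested.

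Tbx20, with 114 CpGs (chr9:24718138-24774303, minus strand), had 13.6 to 17.2% in MEF-1 and 13.0 to 16.8% in MEF-2 clonal lines, and its difference of 0.297 points was smaller than the spread between lines (exact permutation p = 0.714, adjusted p = 0.763). With only 2 kb of upstream sequence the difference was -2.71 points (exact permutation adjusted p = 0.0340). The window joins upstream CpGs that were higher in MEF-1 with promoter CpGs that were higher in MEF-2.

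Tbx4, with 60 CpGs (chr11:85886422-85916097, plus strand), had the widest spread of the 8 genes among MEF-1 lines. MEF-1 clonal lines 1 to 7 had 58.7, 54.4, 54.3, 61.7, 62.4, 52.8 and 55.3%, and MEF-2 clonal lines 1 to 7 had 60.4, 54.5, 55.3, 55.8, 55.4, 52.2 and 59.5%. The families overlapped almost fully, with a difference of 0.957 points (exact permutation p = 0.6002, adjusted p = 0.662). With pooled reads, where deeper CpGs weigh more, the difference was 5.53 points (exact permutation adjusted p = 0.0634), and leaving out single lines gave 0.0716 (without MEF-1 line 5) to 1.68 points (without MEF-1 line 6). MEF-1 lines 1, 4 and 5 lay above the other 4 MEF-1 lines without overlap, as lines 1, 4 and 5 did (above or below) at 16.7% of all genes. Without these 3 lines the family difference was -1.93 points (exact permutation adjusted p = 0.290).

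**Figure D1:**
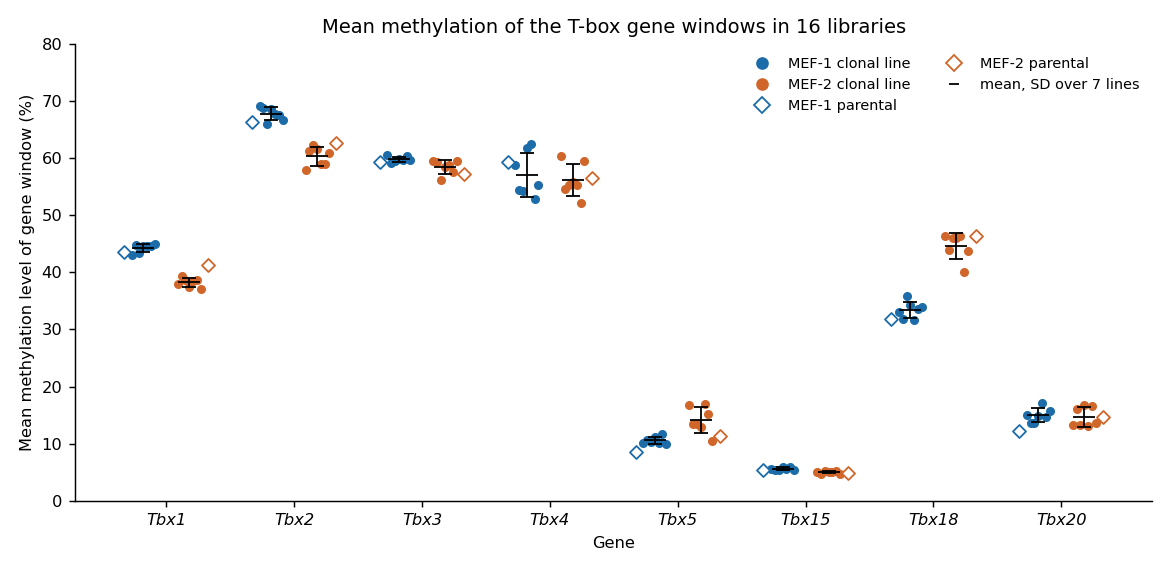
Mean methylation level (%) of the 8 T-box gene windows, with 1 dot per clonal line, diamonds for the parental libraries, and a bar and whiskers for the mean and SD over 7 lines. Dots of the 2 families are apart at Tbx1, Tbx2, Tbx15 and Tbx18 and overlap at Tbx3, Tbx4, Tbx5 and Tbx20. The share of all genes with the families apart was not determined.

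The order of the levels was nearly the same in both families, with Tbx2 highest, followed by Tbx3 and Tbx4, and with Tbx15 lowest. Tbx1 lay above Tbx18 in every MEF-1 clonal line and below it in every MEF-2 clonal line. Tbx3 and Tbx4 overlapped in range in both families, Tbx2 and Tbx3 overlapped in MEF-2, and Tbx20 and Tbx5 overlapped in MEF-2 but not in MEF-1. Parental libraries, which the tests did not use, differed in the direction of their clonal lines at 7 of the 8 genes, with Tbx20 as the exception.

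Single CpGs were compared next with a quasi-binomial model of the methylated and unmethylated reads of the 14 clonal lines, and a CpG was called at an adjusted p under 0.05 over all 1203687 CpGs. In the T-box windows 203 of 965 CpGs were called, or 21.04%, which is near the 20.2% of all CpGs. Of these, 116 were higher in MEF-1 (11.6% of all CpGs were) and 87 were higher in MEF-2 (8.53% of all CpGs were). The parental libraries differed in the same direction at 193 of the 203 CpGs (95.1%), and at 95.4% of all called CpGs of the series. The median size of a called difference was 39.4 points in the windows and 38.6 points over all called CpGs.

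The genes were unlike each other at this scale. Tbx4 had 31 of 60 CpGs called (51.7%), with 18 higher in MEF-1 and 13 higher in MEF-2, so that called CpGs in opposite directions lay within a gene whose mean did not pass the test. Tbx1 had 36 CpGs higher in MEF-1 and 18 higher in MEF-2 among 165, Tbx2 27 and 6 among 115, and Tbx18 4 and 21 among 85. Over CpGs read at least 20 times in each library, Tbx1 had 13 called CpGs, of which 6 were higher in MEF-1. Tbx20 had 9 and 12 among 114, Tbx5 7 and 10 among 107, and Tbx3 13 and 7 among 169. With only 2 kb of upstream sequence Tbx20 had 13 called CpGs among 84, of which 3 were higher in MEF-1. After thinning to 10 reads Tbx3 had 13 called CpGs, of which 7 were higher in MEF-1. Tbx15 had 2 called CpGs among 150 (1.33%), both higher in MEF-1. Without MEF-1 lines 1, 4 and 5, Tbx2 had 21 called CpGs in place of 33, Tbx20 had 12 in place of 21 and Tbx15 had none. This setting compared 4 with 7 lines and called 148 T-box CpGs in place of 203. The part of the smaller number of lines was not tested. Tbx15 also had none after thinning to 10 reads, and 1 when any single line other than MEF-1 lines 1, 2 and 5 was left out. Shares of all CpGs called under these alternatives were not determined.

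**Figure D2:**
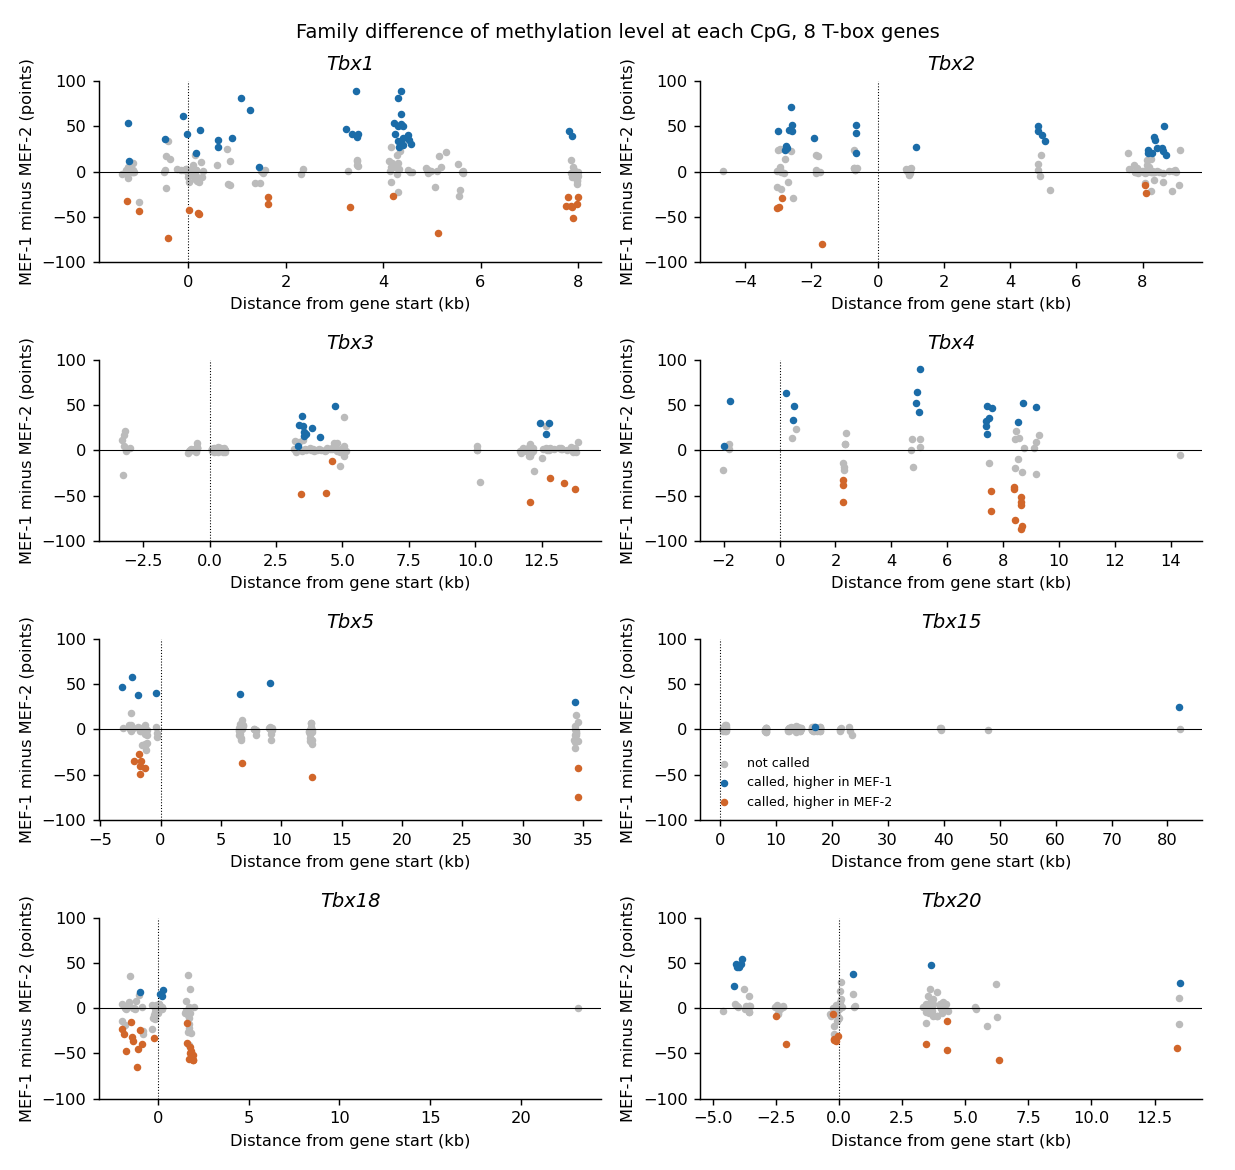
Difference of mean methylation level between MEF-1 and MEF-2 clonal lines (points) at each measured CpG, against distance from the gene start (kb), in 1 panel per T-box gene. Called CpGs are coloured by the family with the higher level and grey dots were not called. Tbx4 holds called CpGs in both directions within 10 kb of its start, most called CpGs of Tbx18 are higher in MEF-2, and Tbx15 has 2 called CpGs, the larger of them differing by 24.5 points.

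At single CpGs the families could be nearly opposite. In a Tbx1 intron, CpG 18587237 was at 92.1% ± 4.08 in MEF-1 clonal lines but at 2.80% ± 2.70 in MEF-2 clonal lines, with parental values of 92 and 3.85%. In the Tbx1 promoter, at -410 bp from the gene start, CpG 18591081 had 22.7% ± 11.2 in MEF-1 and 96.4% ± 5.27 in MEF-2. This was against the direction of the promoter and gene means, and the other 3 called CpGs of this promoter were higher in MEF-1. In Tbx4 introns, CpG 85891454 had 95.2% ± 3.89 in MEF-1 and 5.81% ± 7.25 in MEF-2, whereas CpG 85895051, 8629 bp after the gene start, had 9.64% ± 7.57 and 96.6% ± 3.82. These CpGs were chosen for the size of their difference, so their values are a description.

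The largest called differences of the other genes varied in size. Upstream of Tbx2, CpG 85830876 had 17.2% ± 17.4 in MEF-1 and 97.01% ± 2.30 in MEF-2 clonal lines, against the direction of the gene mean, and CpG 85829947 had 79.6% ± 19.2 and 8.28% ± 6.27. In a Tbx3 coding exon, CpG 119682726 had 43.2% ± 28.0 and 99.6% ± 1.05, also against its gene mean, and intronic CpG 119675374 had 98.3% ± 3.73 and 49.4% ± 32.1. The pairs in both directions thus lay within the same gene. In a distal Tbx5 intron, CpG 119867285 had 18.4% ± 7.65 and 92.6% ± 7.90, while CpG 119830291, upstream of the same gene, had 60.4% ± 21.7 and 3.03% ± 4.02. Tbx18 CpG 87732386, at -1126 bp from the gene start, had 33.1% ± 20.6 in MEF-1 and 97.5% ± 3.44 in MEF-2, while CpG 87730981, in a UTR, had 23.6% ± 17.9 and 3.71% ± 5.72. Tbx20 CpG 24767975, in an intron, had 30.0% ± 16.8 and 87.4% ± 8.66, and CpG 24778158, upstream, had 57.1% ± 10.7 and 2.75% ± 3.57. In Tbx15 the widest was intronic CpG 99322521, at 98.0% ± 1.87 in MEF-1 but 73.4% ± 20.8 in MEF-2. Each value is a mean ± SD of 7 lines.

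CpGs were then grouped by their place in each gene: upstream from 5 kb to 1 kb before the start (distal upstream), the 1000 bp before the start (promoter), exons and introns. Of 27 segments with at least 5 CpGs, 18 passed the exact permutation test with adjustment over all genes with that segment, 10 higher in MEF-1 and 8 higher in MEF-2. Introns were called in 6 of 8 genes (56.0% of all genes tested), distal upstream segments in 5 of 7 (56.4%), promoters in 4 of 5 (46.8%) and exons in 3 of 7 (43.6%).

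Segments of one gene differed in opposite directions in Tbx1 and Tbx20. The 93 intronic CpGs of Tbx1 had 56.9 to 59.2% in MEF-1 and 41.7 to 46.2% in MEF-2 clonal lines (difference 12.8 points, exact permutation adjusted p = 0.00206). Its 34 exonic CpGs had 24.9 to 33.3% in MEF-1 and 33.7 to 42.3% in MEF-2 (difference -8.69 points, exact permutation adjusted p = 0.00293). Neither pair of ranges overlapped. In Tbx20 the 30 distal upstream CpGs had 15.0% ± 2.04 in MEF-1 but 6.33% ± 2.08 in MEF-2, whereas the 25 promoter CpGs had 6.40% ± 1.95 and 16.6% ± 5.46 (SD, n = 7 each), with exact permutation adjusted p of 0.00204 and 0.00435.

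Promoters carried called differences at Tbx1, Tbx2, Tbx18 and Tbx20. In the Tbx2 promoter, MEF-1 clonal lines 1 to 7 were at 21.9, 26.4, 29.7, 19.4, 22.4, 13.4 and 21.3% over 9 CpGs, and MEF-2 clonal lines 1 to 7 had 0.890, 3.55, 0.444, 6.59, 8.35, 11.8 and 2.38%. The lowest MEF-1 line lay above the highest MEF-2 line, and the difference was 17.2 points (exact permutation adjusted p = 0.00254). The divergent transcript 2610027K06Rik overlaps this stretch in the annotation. No measured CpG lay within 500 bp of the Tbx2 start, so these 9 CpGs lie farther upstream. A promoter that reached 500 bp past the start added no Tbx2 CpG and so could not change this difference. The Tbx18 promoter had 17.5% ± 1.96 in MEF-1 against 25.2% ± 3.79 in MEF-2 over 23 CpGs, and the Tbx1 promoter 40.3% ± 3.01 and 33.3% ± 2.22 over 18 CpGs (SD, n = 7 each). With a promoter that reached 500 bp past the start, Tbx1 and Tbx18 lost their calls, with differences of 0.929 points in place of 7.05 and -3.29 points in place of -7.70 (exact permutation adjusted p = 0.525 and 0.0506), and the Tbx20 difference went from -10.2 to -5.91 points (exact permutation adjusted p = 0.0412). The Tbx3 promoter was at 3.26 and 1.75%, with an exact permutation adjusted p of 0.0760, which became 0.00610 with the longer promoter (difference 0.970 points).

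Levels around annotated transcript starts differed from gene to gene. Within 500 bp of the Tbx3 start at chr5:119671018, 41 CpGs averaged 1.79% in MEF-1 clonal lines and 1.16% in MEF-2 clonal lines. Within the same distance, 20 CpGs about a Tbx15 start at chr3:99253760 had 1.62 and 0.714%, and 30 CpGs about the Tbx18 start had 4.24 and 5.67%. At the Tbx4 start at chr11:85886422, 3 CpGs had 71.5% ± 5.32 and 34.6% ± 9.56, and at the Tbx5 start at chr5:119832668, 4 CpGs had 15.7% ± 5.73 and 8.18% ± 5.84. About the Tbx1 gene start, at chr16:18590671, 41 CpGs had 21.5% ± 2.27 and 20.5% ± 2.09. Inside Tbx1, 17 CpGs about the start at chr16:18586969 had 40.5% ± 3.67 and 22.7% ± 4.36, and 11 CpGs about the start at chr16:18588808 had 80.8% ± 3.34 and 88.4% ± 1.07 (SD, n = 7 each). About the Tbx20 gene start, at chr9:24774303, 33 CpGs had 9.27% ± 3.24 and 15.2% ± 5.44, and 8 CpGs about its inner start at chr9:24769680 had 5.03% ± 3.06 and 11.4% ± 3.60. No measured CpG lay within 500 bp of the start of Tbx2 or of the further Tbx4 and Tbx5 starts, such as those at chr11:85890063 and chr5:119834663, or of the Tbx15 gene start at chr3:99240381 and its inner start at chr3:99296510, so nothing can be said of these starts here.

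Introns held the largest segment difference of the 8 genes, in Tbx18. Its 12 intronic CpGs had 20.1 to 34.1% in MEF-1 and 44.1 to 64.6% in MEF-2 clonal lines, without overlap (difference -24.3 points, exact permutation adjusted p = 0.00206). Of these, 5 were called, all higher in MEF-2, and the 5-CpG Tbx18 block shown above (-52.5 points) lies in this segment. The segment and block differences are therefore not separate results. Distal upstream CpGs of Tbx18 differed in the same direction, with 77.2% ± 3.10 and 89.2% ± 1.62 (SD, n = 7 each, exact permutation adjusted p = 0.00204).

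**Figure D3:**
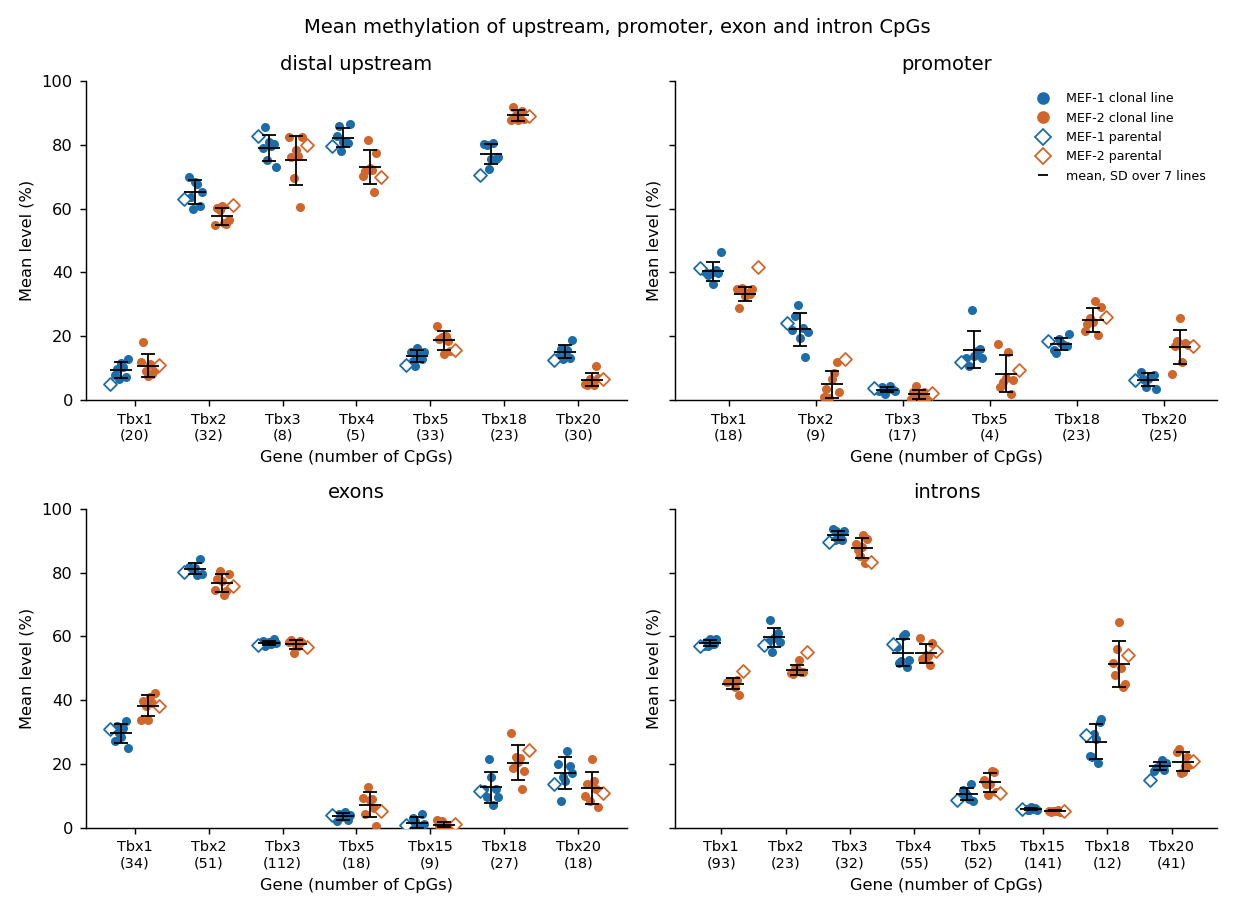
Mean methylation level (%) of distal upstream, promoter, exon and intron CpGs of each T-box gene, with the number of CpGs in brackets, 1 dot per clonal line, diamonds for parental libraries, and the mean and SD over 7 lines. The Tbx1 exons are lower and the Tbx1 introns higher in MEF-1, and the Tbx2 promoter is between 13.4 and 29.7% in MEF-1 and at most 11.8% in MEF-2.

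Called CpGs lay in 15 blocks, 10 higher in MEF-1 and 5 higher in MEF-2. A block was a run of at least 3 CpGs called in 1 direction with gaps of at most 200 bp and no uncalled measured CpG in between. The blocks held 55 of the called CpGs (27.1%), and 18.2% of called CpGs over the whole series lay in such blocks. Measured CpGs of the windows had on average 9.24 other CpGs within 100 bp, against 7.00 over the series, and these shares do not allow for density. Tbx4 held 5 blocks, Tbx1 and Tbx2 3 each, Tbx18 2, and Tbx3 and Tbx20 1 each, while Tbx5 and Tbx15 had none. Because the blocks were chosen from the calls, their levels are a description.

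The block with most CpGs, 8, lay in the Tbx1 intron sequence shown above. MEF-1 clonal lines 1 to 7 had block means of 91.78, 91.54, 92.71, 91.36, 92.74, 82.85 and 94.54%, and MEF-2 clonal lines 1 to 7 had 42.05, 47.68, 29.04, 36.29, 41.41, 41.85 and 36.77%. MEF-1 line 6, the lowest, had a relative coverage of 0.770 on chromosome 16, while line 4, with 0.905, lay with the other lines, and the part of coverage in these levels was not tested. The parental libraries had 90.1 and 45.7%.

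Tbx4 held a pair of 4-CpG blocks in opposite directions, both shown above. At the first, MEF-1 clonal lines had 70.3 to 86.1% and MEF-2 clonal lines 7.57 to 22.8%, and at the second MEF-1 lines had 2.34 to 16.4% and MEF-2 lines 62.1 to 87.1%. The ranges were apart at both, and the parental libraries, at 76.6 and 19.3% for the first and 17.7 and 70.4% for the second, showed the same directions. The other 3 Tbx4 blocks also split, with means of 51.4 and 93.8%, 13.4 and 66.4%, and 90.2 and 58.5% in MEF-1 and MEF-2.

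The Tbx18 block of 5 CpGs, 1897 bp after the start, was at 18.8 to 27.0% in MEF-1 and 65.4 to 90.3% in MEF-2 clonal lines. The annotated gene D030062O11Rik overlaps it, as 2610027K06Rik overlaps the Tbx2 blocks and Gm29824 the Tbx20 block. The Tbx2 upstream block was at 81.1 to 98.6% in MEF-1 and 22.4 to 47.2% in MEF-2, and a further Tbx2 block in the promoter was at 37.1 to 51.4% and 0 to 18.8%. The Tbx20 upstream block was at 47.8 to 65.3% and 0.758 to 24.8%. The Tbx3 exon block, at 94.5 to 100% in MEF-1 and 52.1 to 98.2% in MEF-2, was the only 1 of the 7 shown blocks where the lines of the families overlapped.

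**Figure D4:**
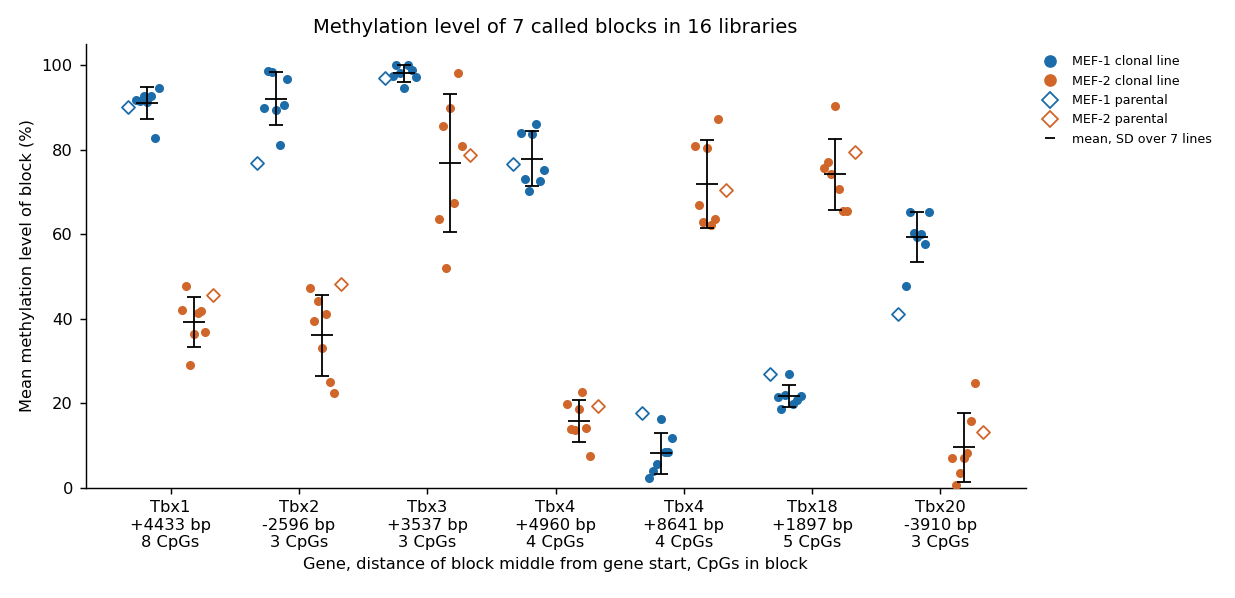
Mean methylation level (%) of the 7 blocks whose sequences are shown, labelled with the distance of the block middle from the gene start (bp) and the number of CpGs, with 1 dot per clonal line, diamonds for parental libraries, and the mean and SD over 7 lines. The families are apart at all blocks other than that of Tbx3, and both directions are seen in Tbx4.

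Variation between the clonal lines of one culture was described next. A CpG was called variable in a family when a chi-square test of its reads over the 7 lines had an adjusted p under 0.05. This test sets the lines against counting error only and takes reads as independent molecules, so PCR duplicates would raise its counts. In MEF-1, 266 of the 965 T-box CpGs were called variable (27.6%), the same share as the 27.6% of all CpGs, and in MEF-2 349 were (36.2%), against 36.8% of all CpGs. The counts depended on depth, with 75 and 154 after thinning to 10 reads, and 149 were called in MEF-1 without lines 1, 4 and 5, which left 4 lines. Shares of all CpGs under these alternatives were not determined. Tbx20 had 50 and 52 variable CpGs of 114, Tbx5 30 and 57 of 107, Tbx1 62 and 67 of 165, Tbx4 23 and 32 of 60, Tbx2 33 and 54 of 115, and Tbx18 26 and 40 of 85. Tbx3 had 36 and 40 of 169, and Tbx15 only 6 and 7 of 150 (4.00 and 4.67%).

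The between-line variance share, which is 0 where all lines have the same level and largest where each line is fully methylated or unmethylated, was 0.115 ± 0.0143 for the T-box CpGs in MEF-1 clonal lines and 0.151 ± 0.0150 in MEF-2 clonal lines (jackknife SE over 7 lines). Over all CpGs it was 0.108 ± 0.00930 and 0.150 ± 0.0108. It was higher in MEF-2 in 7 of the 8 genes, Tbx1 being the exception with 0.135 ± 0.0209 and 0.128 ± 0.0187. Tbx20 and Tbx5 had the highest shares in MEF-2, at 0.202 ± 0.0121 and 0.198 ± 0.0313, and Tbx15 the lowest in both families, at 0.0341 ± 0.00774 and 0.0534 ± 0.0172. The difference between families was not tested for single genes.

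For the mean levels of whole windows, the SD between lines is given beside the SD that read sampling alone would give with reads taken as independent, which PCR duplicates would make too small. This is a description and no test. Tbx4 in MEF-1 had an SD of 3.85 points (0.937 from sampling) and Tbx5 in MEF-2 had 2.30 points (0.514 from sampling). Tbx15 had 0.266 points in MEF-1 (0.220 from sampling) and 0.176 points in MEF-2 (0.181 from sampling). The SD was above the sampling value at 8 of 8 genes in MEF-1 and at 7 of 8 in MEF-2.

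Some CpGs were almost unmethylated in 1 line and almost fully methylated in another line of the same culture. A level of at most 10% in 1 line and at least 90% in another was seen at 9 T-box CpGs in MEF-1 (0.467% of all CpGs) and at 13 in MEF-2 (1.22% of all CpGs). In the windows these were 0.933 and 1.35%.

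The CpG with the widest range was found for each gene and family. In a Tbx20 coding exon, CpG 24770706 had levels of 0 to 100% in MEF-1, where line 6 had 28 of 28 reads methylated (95% Wilson interval 87.9 to 100%) and the median line 11.1%, with 0 of 22 reads in line 7 (0 to 14.9%). Upstream of Tbx5, CpG 119831416 had 32 of 33 reads methylated in MEF-1 line 6 (84.7 to 99.5%) and 0 of 30 in line 3 (0 to 11.4%), with a median line of 6.45%. In a Tbx1 coding exon, CpG 18582768 had 22 of 24 reads methylated in MEF-1 line 6 (74.2 to 97.7%), and 1 of 46 in line 2 (0.385 to 11.3%), with a median line of 6.45%. Over the 8 genes, MEF-1 line 6 was highest at the widest CpG of Tbx1, Tbx2, Tbx5 and Tbx20 and lowest at that of Tbx4, while lines 1, 7, 4 and 3 were highest at those of Tbx3, Tbx4, Tbx15 and Tbx18. The relative coverage of line 6 was 0.770 on chromosome 16 (Tbx1), 0.890 on chromosome 11 (Tbx2, Tbx4), 1.06 on chromosome 5 (Tbx5) and 1.01 on chromosome 9 (Tbx20), and its part in these levels was not tested.

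MEF-2 lines showed ranges as wide. Tbx1 intronic CpG 18586499 had 23 of 23 reads methylated in line 1 (85.7 to 100%) and 0 of 14 in line 2 (0 to 21.5%). Tbx4 intronic CpG 85895172 had 15 of 15 in line 2 (79.6 to 100%) and 1 of 23 in line 6 (0.772 to 20.99%), whereas the 7 MEF-1 lines lay between 42.1 and 53.8% there. Tbx3 intronic CpG 119675374 had 5 of 50 in line 6 (4.35 to 21.4%) and 31 of 32 in line 5 (84.3 to 99.4%), while MEF-1 lines had 90 to 100%. In a Tbx18 coding exon, CpG 87729562 had the widest range in both families, with 19 of 19 in MEF-1 line 3 (83.2 to 100%) and 1 of 27 in line 5 (0.657 to 18.3%), and with 26 of 27 in MEF-2 line 1 (81.7 to 99.3%) and 0 of 39 in line 6 (0 to 8.97%). These intervals cover counting error only.

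**Figure D5:**
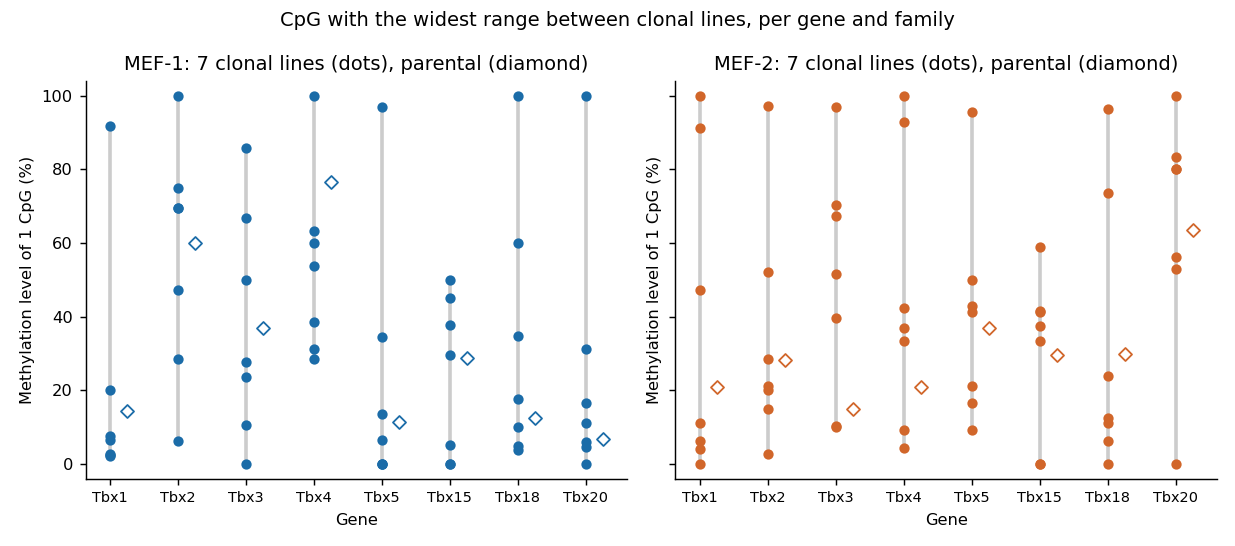
Methylation level (%) of the CpG with the widest range over the 7 clonal lines of a family, for each T-box gene, in MEF-1 on the left and MEF-2 on the right, with dots for clonal lines and a diamond for the parental library. At Tbx20 in MEF-1, 1 line is at 100% and the others are at 31.3% or lower, whereas the widest CpG of Tbx15 spans 0 to 50.0% in MEF-1 and 0 to 58.8% in MEF-2.

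In the T-box windows, MEF-1 lines 1, 4 and 5 were closer to each other than other pairs of lines. Their 3 pairs had mean absolute differences of 7.08 to 7.14 points over the 965 CpGs, the other 18 MEF-1 pairs 7.63 to 9.01 points and the 21 MEF-2 pairs 8.01 to 10.955 points. Lines 1, 4 and 5 were also closer to the MEF-1 parental library, at 6.95 to 7.01 points, than the other 4 lines, at 7.77 to 8.20 points. P-values over lines take the lines as independent and may be too small for that reason. Distances over all CpGs of the series were not determined, so the closeness of lines 1, 4 and 5 is not given as particular to these windows.

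Among CpGs with at least 11 other CpGs within 100 bp, 68 of 396 T-box CpGs were called between families (17.2%), and 7.65% of all such CpGs were. Their mean level was 25.5% in MEF-1 clonal lines and 24.9% in MEF-2 clonal lines, against 13.478 and 13.3% over the series. Between lines, 26.01% of the dense T-box CpGs were variable in MEF-1 and 32.6% in MEF-2, against 14.4 and 19.8% over the series. At lower densities the called shares were 20.2 to 27.7% in the windows and 17.7 to 27.7% over the series. These shares are given without a test, since neighbouring CpGs are not independent. The fidelity score, which counts the portion of 14 clonal lines at 0 to 10, 40 to 60 or 90 to 100%, had a mean of 0.829 in the windows and 0.833 over the series, and it ranged from 0.726 in Tbx4 to 0.976 in Tbx15.

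Other genes of the T-box family and of body patterning were set beside them, and those named were picked as examples after their values were seen. Of 7 other T-box genes with enough CpGs, 3 were higher in MEF-1 and 2 higher in MEF-2 by the exact permutation test, where 39.4 and 21.0% of all genes were. Tbx6, a gene of paraxial mesoderm, had 18.1 and 7.51% in MEF-1 and MEF-2, and Tbx21, a regulator of T helper cells, had 49.0 and 41.5% (exact permutation adjusted p = 0.00188 for both). Tbx19, a pituitary factor, had 56.8 and 70.0% and Tbr1, a factor of cortical neurons, had 28.8 and 32.2% (exact permutation adjusted p = 0.00564 and 0.00790). Of 51 positional and mesodermal genes, 19 were higher in MEF-1 and 17 higher in MEF-2, to be read against the same shares of all genes. Among them Pitx1, which acts with Tbx4 in the hindlimb, had 17.5 and 21.4%, Hand2, a posterior limb and heart factor, had 14.3 and 8.71%, and Nkx2-5, a heart factor, had 20.3 and 10.6% (exact permutation adjusted p = 0.00188 for each).

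The genes most like each T-box gene were found by the root mean square difference of the 16 mean levels. They were Patl2 and Mms22l for Tbx1 (1.32 and 1.37 points), Ptprs and Evi5 for Tbx2 (1.68 and 1.92), Hmgb1 and Spen for Tbx3 (0.881 and 0.897), L1td1 and Nek6 for Tbx4 (1.62 and 2.04), Ccdc90b and Galnt11 for Tbx5 (1.60 and 1.69), Suco and Hist1h3e for Tbx15 (0.364 and 0.416), Med28 and Rfxap for Tbx18 (2.56 and 2.66), and Psmc4 and Wdr77 for Tbx20 (1.12 and 1.26).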

How the data were processed

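tcBS-seq data of 2 parental and 14 clonal lines were grouped by their labels. The deposited files hold counts of methylated and unmethylated reads per CpG, with no normalization. The authors used Trim Galore 0.6.0 for trimming and Bismark for alignment against mm10, filtered on mapping quality and joined the strands, and the series table holds 16 chromosomes and CpGs read 10 times or more in each of 16 libraries. Removal of PCR duplicates is not given in the sources used here. At the 965 CpGs, all 15440 values equalled the library tables, and every position was a CpG of GRCm38 (mm10). The 2 columns per library that follow from the counts were not used, nor were the authors' CpG scores.

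Of 5549 reference CpGs in the windows, 965 were measured. Members and gene lists were chosen with earlier results of these data known. CpG calls came from a quasi-binomial F-test (dispersion at least 1), variable CpGs from a Pearson chi-square test, and gene and segment means from two-sided exact permutation tests over 3432 splits, whose smallest p is 0.000583, all adjusted by Benjamini-Hochberg over the whole table. All genes needed at least 5 CpGs. Named were, for each gene, the CpG with the largest called difference in each direction, the CpG with the widest called range in each family, and the block with most CpGs in each direction (ties by difference). Scripts used Python 3.11.15, numpy 2.4.6 and scipy 1.17.1 and were tested on simulated data.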

Additional observations from a re-analysis of the deposited data

Results flagged for a closer look

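Over 30 groups of 7 lines (8 gene means and 7 blocks in each family), 2 held a line far from the others by Dixon's criterion, which chance alone meets in about 1 of 20 groups. In the Tbx1 block of 8 CpGs, MEF-1 clonal line 6 had 82.9%, below the other 6 lines at 91.4 to 94.5%, and this line had a relative coverage of 0.770 on chromosome 16. In the Tbx18 block of 5 CpGs, MEF-1 clonal line 4 had 27.0%, above the other 6 lines at 18.8 to 21.9%. Both lines stayed on the side of their own family.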

How the results depend on the processing

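The number of T-box CpGs called between families was 77 of the 340 with at least 20 reads in all libraries, where fewer CpGs were tested, and 394 with Fisher's exact test of pooled reads, which ignores variation between lines. It was 180 to 196 when each line was left out in turn. Variable CpGs in MEF-1 numbered 99 of 340 with at least 20 reads, 75 of 965 after thinning to 10 reads and 149 of 965 without lines 1, 4 and 5. In MEF-2 they numbered 137 of 340 and 154 of 965 under the first 2 of these. The variance share in MEF-1 was 0.0987 with at least 20 reads and 0.132 without lines 1, 4 and 5. Its highest possible value is larger with fewer lines, and the part of this in the change was not tested. The number of called genes was 6 without any single line, 5 with pooled reads, at least 20 reads, thinning or without lines 1, 4 and 5, and 7 with 2 kb upstream. Shares of all genes and CpGs called under these alternatives were not determined, so the counts cannot be set against other genes. Tbx1 reversed to -2.35 points with at least 20 reads and Tbx4 to -1.93 points without lines 1, 4 and 5. Tbx20, not called, was -0.0997 points with pooled reads, -0.523 with at least 20 reads, -0.301 after thinning, -0.232 without lines 1, 4 and 5, -0.0720 to 0.657 when single lines were left out (negative only without MEF-1 line 5) and, past the threshold, -2.71 points with 2 kb upstream. The causes were not tested. Tbx2, Tbx5, Tbx15 and Tbx18 kept direction and call under every alternative run.

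Line numbers did not pair lines across families (correlations of deviations -0.0525 to 0.0388, best match for 1 of 7 numbers). With the number as a replicate block 5 genes were called, Tbx3 being lost (exact sign-flip adjusted p = 0.0561). Depth limits single CpGs, since 10 reads set the lowest coverage.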
